A study of Mus musculus with 28 samples.

Results

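Chemokines and their receptors were followed across 14 cell populations sorted from mouse back skin. Members were all rows of the deposited table whose gene symbol was that of a CC, CXC, CX3C or XC chemokine or of a receptor of the Ccr, Ccrl, Cxcr, Cx3cr or Xcr series. The rule used names only and no measured value, although it was chosen with earlier results of these data known. It found 56 rows (55 symbols, since Ccl19 had 2 rows) among 23015, of which 35 were ligands and 21 receptors.

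Chemokines are small secreted proteins that bind receptors coupled to inhibitory G proteins and direct the movement of cells along their gradients. Homeostatic chemokines such as Cxcl12, Cxcl14 and Ccl27a are made constantly and place cells within a tissue, while inflammatory ones such as Cxcl1, Cxcl10 and Ccl2 are induced by cytokines and draw leukocytes. Atypical receptors, here Cxcr7 (now Ackr3) and Ccrl1 (now Ackr4), bind chemokines without the usual signal and take them up. In skin, Ccl27a and Ccl20 are known as keratinocyte products that attract T cells and Langerhans cell precursors.

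Populations were isolated by flow cytometry at postnatal day 5 from mice of mixed CD1, FVB/N and C57BI/6J background, with 2 libraries per population and 28 in all. The labels list the genotype Lef1-RFP for 12 populations. From K14-H2BGFP skin came Epi, the GFP-positive cells of epidermis. The dermal preparation gave ORS (bright GFP, outer root sheath), Mx (dim GFP, matrix) and TAC (dim GFP with Lef1-RFP, labelled as Shh-expressing matrix progenitors). The same skin gave Mc (melanocytes, Lef1-RFP-positive and CD117-positive), DF (dermal fibroblasts, Lef1-RFP-positive without CD117 and ITGA9), DP (dermal papilla, Lef1-RFP-positive with high ITGA9) and Neg, a mixture of negative cells. Papilla cells, Lef1-RFP-positive with high ITGA9, were also split by hair type. Sox2-GFP skin gave cells with the reporter, labelled G/AA-DP for guard and awl/auchene hairs, and cells without it, labelled ZZ-DP for zigzag hairs. Crabp1-GFP skin gave AA/ZZ-DP with the reporter and G-DP without it. K14-RFP Sox9-GFP skin gave HF-SC, precursors of bulge stem cells, and HF-ORS, the remaining sheath cells. Both were K14-RFP-high and ITGA6-high, with and without Sox9-GFP, and the labels list no Lef1-RFP for them. K14 is the keratin 14 promoter, active in basal keratinocytes. No label ties a replicate to its own animal, so p-values measure the spread between these samples, which may be technical.

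Values are FPKM, fragments per kilobase of transcript normalised to library size, and paired values are replicate 1 and then replicate 2. Log2 changes are differences of log2(FPKM + 1) with their standard error (SE), a scale that understates the change of low genes. Tests used limma on the 15052 genes that reached 1 FPKM in 2 or more libraries, and a gene was called at a Benjamini-Hochberg adjusted p under 0.05 with a log2 change of at least 1 in size. Sequencing depth is unknown. Between 10951 and 12497 genes reached 1 FPKM in a library, and replicates correlated across genes, which are not independent, at a Pearson r of 0.884 to 0.966. The nuclear RNA Malat1 was listed at 0 in 10 libraries and at 1734.4 or more in the other 18, so a value of exactly 0 can be a failed estimate and is described only as listed at 0. In sorted bulk samples fewer cells that express a gene and less RNA per cell cannot be told apart.

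The Sox2-GFP sorts went against their labels in the first replicate. Sox2 was at 0 and 4.81 in the libraries labelled G/AA-DP, which should carry the reporter, and at 4.87 and 0.0891 in those labelled ZZ-DP. Crabp1 was at 655 and 1227 in the libraries labelled G/AA-DP and at 1426 and 545 in those labelled ZZ-DP, again in opposite order in the 2 replicates. Results from this line are therefore those of the libraries labelled so. Kit, which encodes the CD117 used to sort melanocytes, was at 95.7 and 170 in G-DP against 4.50 and 5.46 in AA/ZZ-DP. Krt1 and Krt10, keratins of suprabasal epidermis, were at 1481 and 1024 and at 1384 and 767 in HF-ORS, against 7.96 and 0.548 and 7.67 and 4.09 in ORS.

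Epidermis and the Sox9-GFP sheath sorts carried the most chemokine RNA. Summed over the 56 rows, FPKM ran from 50.5 in Mc replicate 2 to 1111 in Epi replicate 2. Ccl27a alone made 77.4% and 81.9% of the sum in Epi, and its share elsewhere ran down to 4.34% in ZZ-DP replicate 2. Without Ccl27a the HF-SC and HF-ORS libraries had the highest sums, 429 to 600, and Mc the lowest, 36.6 and 30.1.

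**Figure D1:**
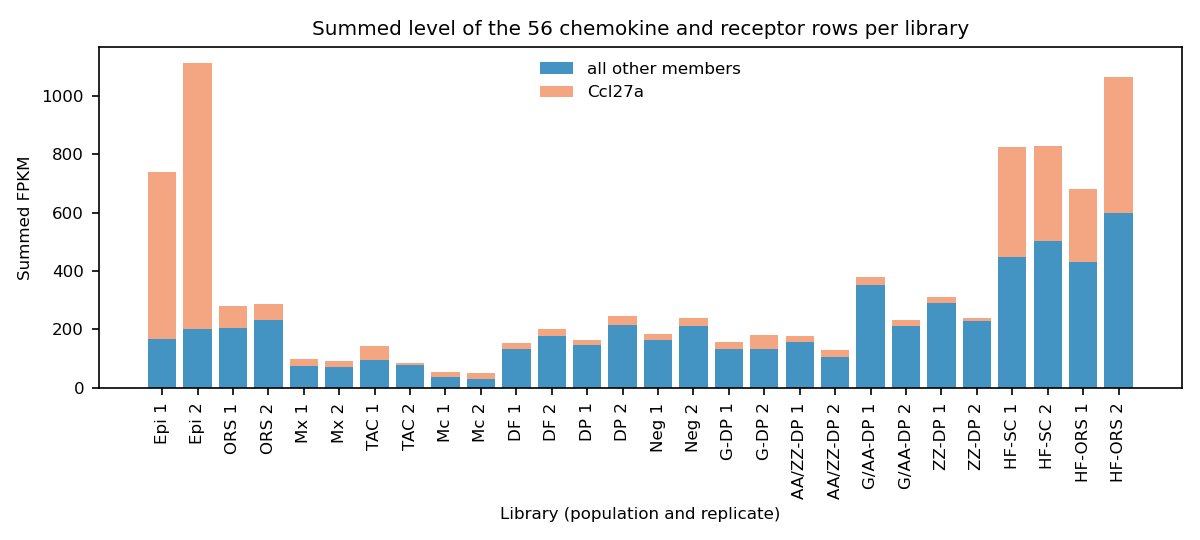
Summed FPKM of the 56 chemokine and receptor rows (y axis) in each of the 28 libraries (x axis, population and replicate), with Ccl27a in orange and all other rows in blue. Ccl27a made most of the sum in both Epi libraries, and Mc replicate 2 had the lowest sum, 50.5.

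A population mean of at least 5 FPKM was reached in at least 1 population by 18 members, 15 ligands and 3 receptors (Cxcr4, Cxcr7 and Ccrl1). A further 12 members peaked at 1 to 5 FPKM, 19 stayed above 0 and under 1, and 7 were listed at 0 in all libraries. HF-SC had the most members at 5 FPKM or more, 12, followed by DF, Neg and HF-ORS with 11 each. Mc had 3, namely Ccl27a, Ccl19 and Ccl25. Of the 56 members, 32 passed the filter on low values and were tested, 22 ligands and 10 receptors.

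**Figure D2:**
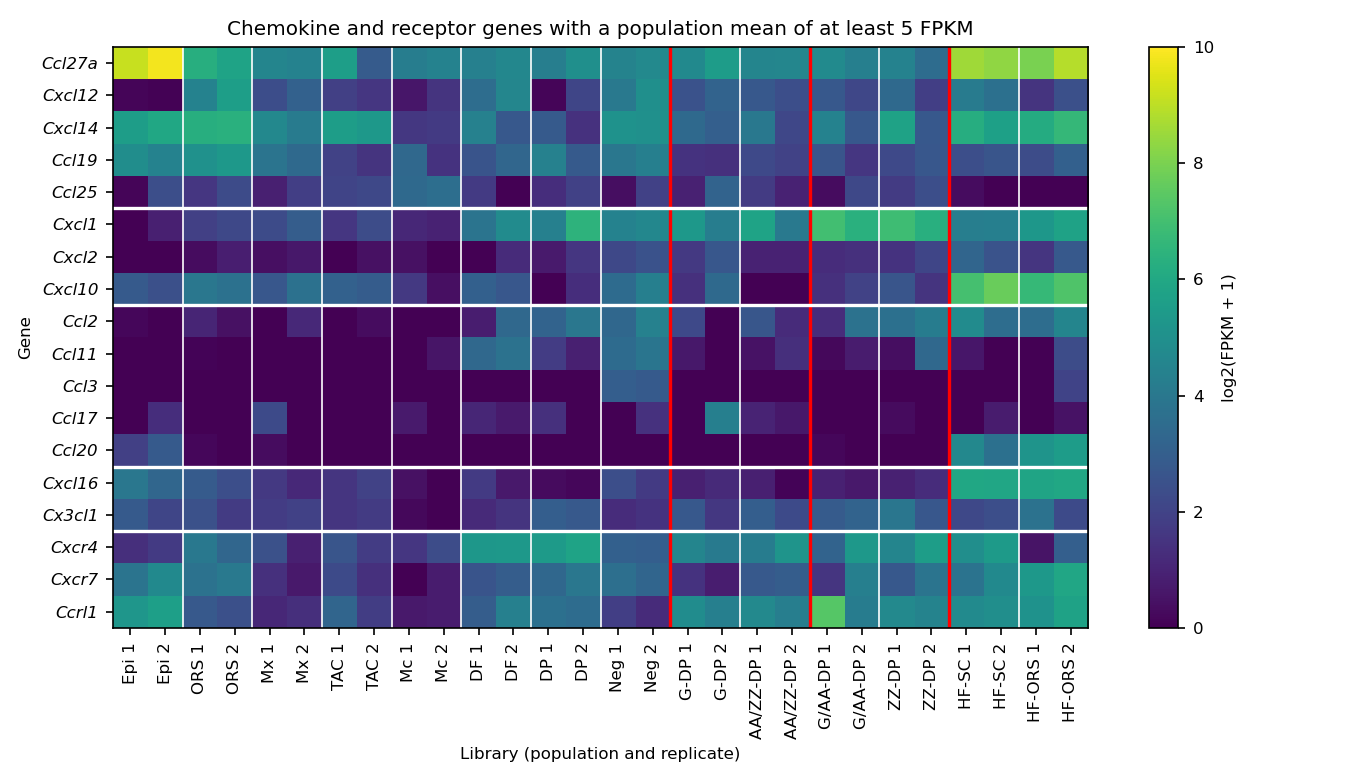
Levels as log2(FPKM + 1) (colour) of the 18 members with a population mean of at least 5 FPKM (rows, from homeostatic ligands at the top to receptors at the bottom) in all 28 libraries (columns), with red lines between mouse lines. Ccl27a is brightest in Epi, HF-SC and HF-ORS, Ccl3 is above 0 in Neg and 1 HF-ORS library only, and Cxcl10, Cxcl16 and Ccl20 are brightest in HF-SC and HF-ORS.

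Among homeostatic ligands, Ccl27a had the highest level of all members. It was at 572 and 911 in Epi, 251 and 466 in HF-ORS and 375 and 324 in HF-SC. ORS followed at 75.4 and 54.7, TAC was at 47.3 and 6.28, and the other 9 populations lay between 10.4 and 45.6. Both Epi libraries were above every other library, HF-SC and HF-ORS overlapped each other, and both lay above ORS. ORS was lower than Epi by a log2 change of -3.47 ± 0.56 (SE, limma, adjusted p = 0.000196). Ccl27a (GRCm38.p6 chromosome 4, 41769467 to 41774225) shares 8 exon bases with Il11ra1 on the opposite strand, and since the counting is not stated to use strand, reads there cannot be divided. Il11ra1 was highest in ORS, at 44.5 and 56.3, and at 7.73 and 10.3 in Epi.

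Cxcl12, the ligand of Cxcr4, had its highest means in ORS, Neg, DF and HF-SC and was nearly absent from Epi. It was at 20.4 and 47.5 in ORS, 15.5 and 30.5 in Neg, 10.8 and 22.9 in DF and 16.8 and 11.99 in HF-SC. It was at 0.1004 and 0.0509 in Epi, 0.109 and 3.27 in DP and 1.81 and 4.37 in HF-ORS. ORS overlapped Neg and DF but lay above HF-SC, and both Epi libraries were the lowest of all 28. ORS exceeded Epi by a log2 change of 4.91 ± 0.63 (limma, adjusted p = 1.25e-05). DP was below DF by a log2 change of -2.95 ± 0.63 (adjusted p = 0.00492), a call that was lost without DF replicate 2 (0.0623) or DP replicate 1 (0.136). Mx, at 4.12 and 7.67, was below ORS (-2.27 ± 0.63, adjusted p = 0.0452), but this call was lost with any of the 4 libraries left out (0.0553 to 0.49). Cxcl12 lies on chromosome 6, 117168535 to 117181368.

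Cxcl14, a CXC ligand expressed in epithelia, was high in 5 of the 6 keratinocyte sorts, Mx being lower. It was at 75.4 and 81.3 in ORS, 46.3 and 60.9 in Epi, 46.9 and 39.3 in TAC, 73.5 and 50.9 in HF-SC and 70.1 and 100.7 in HF-ORS. In DP it was at 6.08 and 1.68 and in Mc at 2.09 and 2.28. Neg, at 33.2 and 31.9, lay above Mx, at 24.1 and 17.0, and above DF, at 19.95 and 5.83, and ZZ-DP differed between its libraries, at 53.3 and 5.70. The mean of DF and DP was below that of Epi, ORS, Mx and TAC by a log2 change of -2.63 ± 0.46 (limma, adjusted p = 0.000106).

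Ccl19, a ligand of Ccr7, was at 32.2 and 39.8 in ORS, 29.0 and 20.9 in Epi and 14.8 and 19.0 in Neg. ORS lay above Epi and Epi above Neg without overlap, DP was at 20.1 and 6.19, and the papilla sorts of the Sox2-GFP and Crabp1-GFP lines stayed at 5.53 or less. The table places Ccl19 on an unplaced scaffold, where copies of the gene lie, so that the value may join several copies and is uncertain. Its second row was listed at 0 throughout. Ccl25, a ligand of Ccr9, was highest in Mc, at 9.77 and 11.2, against 2.29 and 0 in DF (log2 change 2.66 ± 0.79, limma, adjusted p = 0.0201). That call was lost without Mc replicate 1 (0.0764), Mc replicate 2 (0.0995) or DF replicate 2 (0.241). Ccl25 shares 204 exon bases with Elavl1 on the opposite strand, so its values are uncertain. Elavl1 ran from 10.1 to 23.0 over the 28 libraries, and its part in the Ccl25 values was not tested. Cxcl13 stayed under 1 FPKM in every library.

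Inflammatory CXC ligands lie in 2 clusters on chromosome 5, and the genes of a cluster differed widely in level. Cxcl5, Cxcl3, Cxcl1 and Cxcl2, which draw neutrophils, lie between 90759298 and 90905938. Cxcl9, Cxcl10 and Cxcl11, induced by interferon and ligands of the T cell receptor Cxcr3, lie between 92321331 and 92363296. The promoters of Cxcl1, Cxcl2, Cxcl3, Ccl20 and Cxcl10 are shown because they hold matches to response motifs and belong to inflammatory ligands, Cxcl3 as the low neighbour of Cxcl1 and Cxcl2. Each ends 1 base before the RefSeq start of GRCm38.p6 and is written 5′ to 3′ on the gene's strand. Capitals mark matches on either strand to the NF-kB motif (GGG, any 2 bases, TTTCC), or in Cxcl10 to the interferon response motif (GAAA, any 2 bases, GAAA). The stretches are chr5:90891125-90891244 (plus strand), chr5:90903779-90903898 (plus), chr5:90785981-90786100 (plus), chr1:83116646-83116765 (plus) and chr5:92348890-92349139 (minus), in the order printed.
Cxcl1: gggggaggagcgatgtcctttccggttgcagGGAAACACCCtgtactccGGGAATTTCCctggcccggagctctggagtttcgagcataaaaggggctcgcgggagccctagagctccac
Cxcl2: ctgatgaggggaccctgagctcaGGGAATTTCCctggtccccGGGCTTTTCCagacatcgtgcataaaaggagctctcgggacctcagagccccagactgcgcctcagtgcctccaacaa
Cxcl3: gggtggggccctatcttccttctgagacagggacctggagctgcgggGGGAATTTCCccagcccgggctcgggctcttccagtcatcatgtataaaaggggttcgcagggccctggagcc
Ccl20: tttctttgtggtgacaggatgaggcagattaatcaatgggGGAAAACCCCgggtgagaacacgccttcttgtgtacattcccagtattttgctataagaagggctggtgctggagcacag
Cxcl10: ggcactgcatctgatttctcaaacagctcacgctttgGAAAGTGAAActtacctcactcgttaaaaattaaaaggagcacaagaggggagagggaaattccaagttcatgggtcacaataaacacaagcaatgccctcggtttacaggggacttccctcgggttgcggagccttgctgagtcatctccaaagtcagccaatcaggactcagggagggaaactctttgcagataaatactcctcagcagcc

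Cxcl1, Cxcl2 and Cxcl3 share the run GGGAATTTCC, at 71, 97 and 73 bases before the start. Of 39 member genes with a RefSeq promoter, 6 held the NF-kB motif in the 250 bases before a start (Ccl20, Ccl9, Ccr3, Cxcl1, Cxcl2 and Cxcl3), against 1.41% of 32817 promoters of all genes. The interferon response motif was found in Cxcl10 and Cxcl14, against 2.97% of all promoters. A match describes letters only. Only the forms given were searched, so a promoter without a match, such as that of Cxcl10 for NF-kB, may hold other forms.

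Cxcl1 had the highest mean of the inflammatory ligands in each papilla sort. It was at 125 and 79.9 in the libraries labelled G/AA-DP, 119 and 78.3 in those labelled ZZ-DP, 19.3 and 87.7 in DP, 55.4 and 15.3 in AA/ZZ-DP and 39.3 and 17.9 in G-DP. DF was at 13.3 and 27.7, Neg at 20.3 and 23.9, HF-ORS at 38.7 and 52.8 and HF-SC at 18.2 and 19.0. Epi, ORS, Mx, TAC and Mc lay between 0 and 6.81, below every library of the other populations. The mean of DF and DP exceeded that of Epi, ORS, Mx and TAC by a log2 change of 3.11 ± 0.37 (limma, adjusted p = 8.94e-07), and Mc was below DF (-3.30 ± 0.60, adjusted p = 0.000404). Immediate early genes, which rise during tissue dissociation, were also high in 3 papilla sorts. Their summed FPKM over 9 genes was 2740 and 2208 in DP, 4308 and 1872 in G/AA-DP and 3542 and 2148 in ZZ-DP. G-DP was at 2217 and 860, AA/ZZ-DP at 2442 and 1068 and DF at 1349 and 869. HF-SC was at 6299 and 5103 and HF-ORS at 4933 and 3632. TAC, where Cxcl1 was low, was at 2279 and 1346, and the stress gene Atf3 was at 1.48 to 13.3 in the papilla libraries against 40.0 and 17.0 in DF. Their part in the Cxcl1 levels was not tested. In the first replicates labelled G/AA-DP and ZZ-DP, where Cxcl1 was highest, the heat shock gene Hspa1a was at 473 and 328, against 53.2 and 62.1 in the second.

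Cxcl2, whose promoter shares the NF-kB match with Cxcl1, stayed far lower. It was at 8.51 and 4.84 in HF-SC, 1.90 and 5.98 in HF-ORS, 3.54 and 4.71 in Neg and 2.19 and 5.56 in G-DP. Cxcl3 reached 2.18 and 0.579 in HF-ORS and was listed at 0 in both libraries of 11 populations. Cxcl5 reached 0.837 and 1.11 in ZZ-DP and was not tested.

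Cxcl10 set the Sox9-GFP line apart. It was at 131 and 210 in HF-SC and 103 and 149 in HF-ORS, and between 0 and 19.0 in the other 12 populations. The HF-SC and HF-ORS libraries overlapped each other and no others. Within the K14-H2BGFP line it was at 14.5 and 12.4 in ORS, 10.4 and 19.0 in Neg and 7.47 and 5.64 in DF, and at 0 and 1.45 in DP. DP was below DF by a log2 change of -2.26 ± 0.59 (limma, adjusted p = 0.0228), lost without DF replicate 1 (0.171), DF replicate 2 (0.0566) or DP replicate 1 (0.292). The mean of DF and DP was below that of Epi, ORS, Mx and TAC (-1.40 ± 0.36, adjusted p = 0.00372), a call lost with a pseudocount of 5. DF alone, at a mean of 6.55, was above Epi (5.27) and overlapped TAC (7.04), with Mx at 8.92. DP was far lower, at a mean of 0.7225. Its neighbours Cxcl9 and Cxcl11 were also highest in the Sox9-GFP sorts, at 1.76 and 3.32 in HF-SC and 3.92 and 3.52 in HF-ORS for Cxcl9, and at 0.194 and 4.86 and 1.42 and 0 for Cxcl11. Cxcl10 shares 133 exon bases with Art3 on the opposite strand, and Art3 was highest in DF, at 12.998 and 17.5, and at 2.97 or less in HF-SC and HF-ORS.

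**Figure D3:**
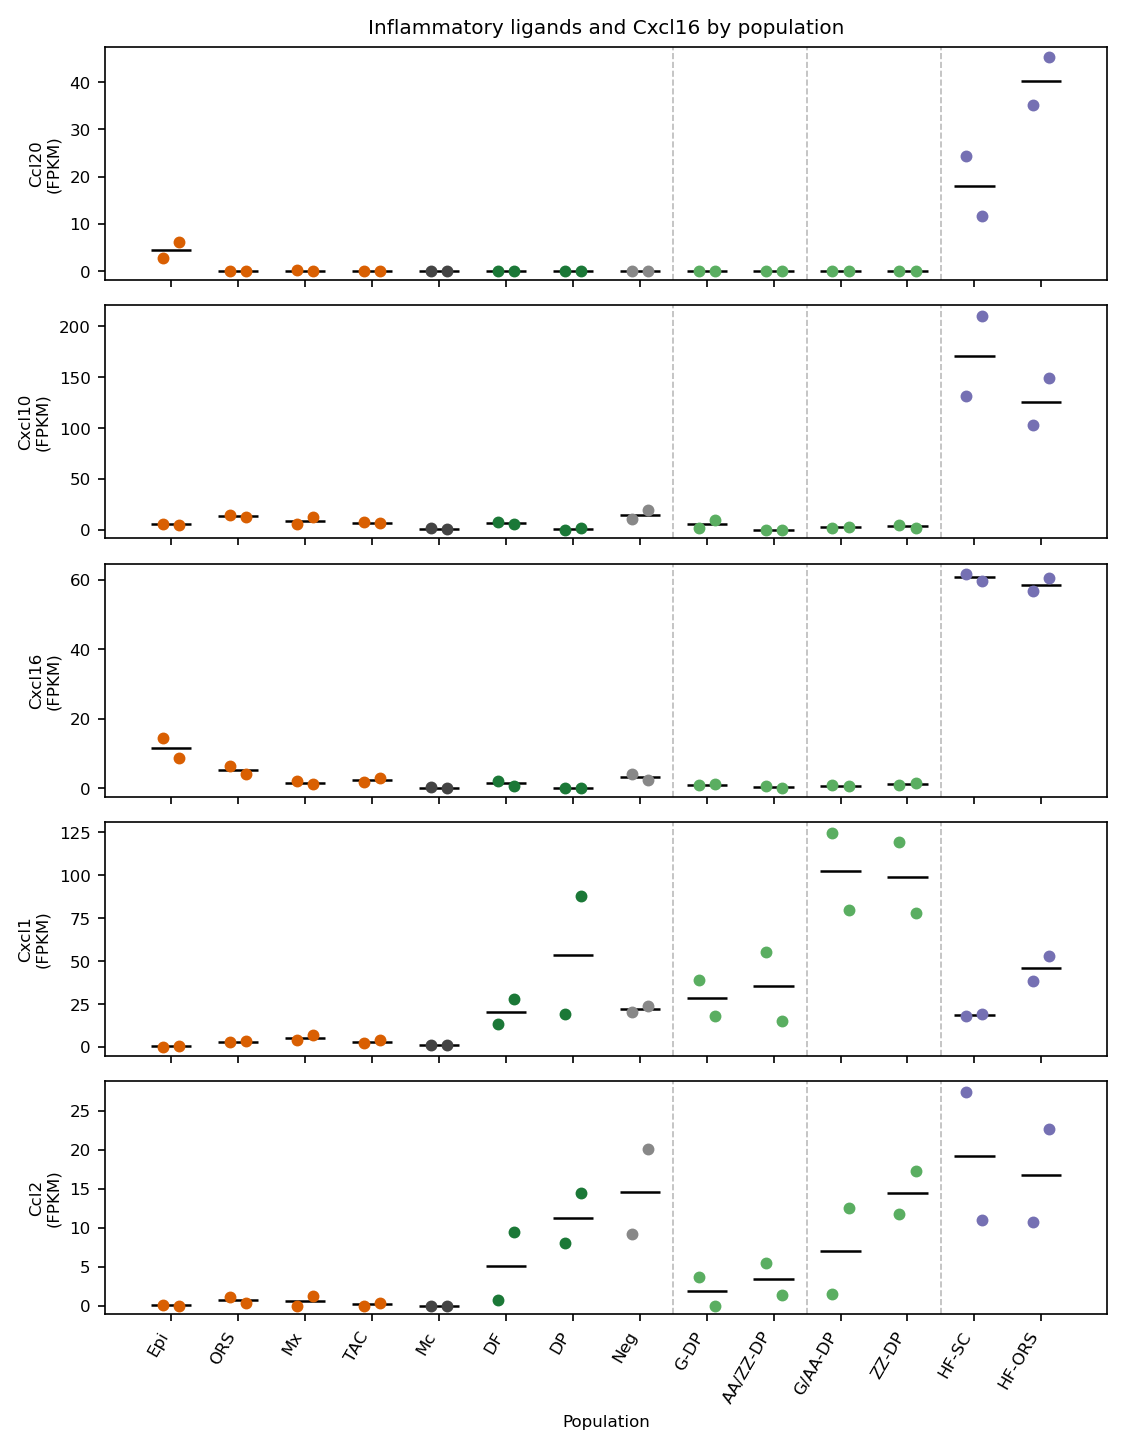
FPKM (y axes, linear) of Ccl20, Cxcl10, Cxcl16, Cxcl1 and Ccl2 in the 14 populations (x axis), where points are the 2 libraries, bars their mean and dashed lines separate mouse lines. Ccl20, Cxcl10 and Cxcl16 stand highest in HF-SC and HF-ORS, and Cxcl1 has its highest means in G/AA-DP and ZZ-DP, whose libraries run from 78.3 to 125, with DP replicate 2 at 87.7.

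Within the K14-H2BGFP line, Ccl2 had its highest means in Neg and DP, Ccl11 in Neg and DF, Ccl7 in DF and Ccl20 in Epi. Over all 14 populations, Ccl2 and Ccl7 had their highest means in the epithelial sorts of the Sox9-GFP line. In pairwise tests within the K14-H2BGFP line, Ccl2 was called above 5 of the other 7 sorts in DP and above none in DF. Ccl11 and Ccl7 were called above 5 and 6 of the other 7 in DF and above none in DP. Ccl2 and Ccl7, which attract monocytes, and Ccl11, which attracts eosinophils, lie together on chromosome 11 between 82035577 and 82062955. Ccl2 was at 9.22 and 20.03 in Neg, 8.03 and 14.4 in DP, 0.757 and 9.41 in DF and 11.8 and 17.2 in ZZ-DP, and at 27.5 and 10.9 in HF-SC and 10.8 and 22.6 in HF-ORS. Epi, ORS, Mx, TAC and Mc had no value above 1.24. The mean of DF and DP exceeded that of Epi, ORS, Mx and TAC by a log2 change of 2.43 ± 0.52 (limma, adjusted p = 0.000768).

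Ccl11 was at 10.3 and 13.8 in Neg and 9.42 and 12.7 in DF, which overlapped. DP was at 2.46 and 0.828, and Epi, ORS, Mx and TAC had no value above 0.0811. The mean of DF and DP exceeded the 4 epithelial sorts by 2.44 ± 0.43 (limma, adjusted p = 0.000118). ZZ-DP was at 0.293 and 9.30, and other markers differed between the same libraries. Fibroblast markers summed to 1008 and 2703, pericyte and smooth muscle markers to 12.8 and 57.3 and melanocyte markers to 21.4 and 563, and their part was not tested. Ccl7 had its highest mean in HF-ORS, at 7.57 and 1.98, and was at 1.71 and 2.46 in HF-SC. It was at 2.79 and 6.24 in DF and 0.996 and 0 in DP (log2 change -1.89 ± 0.46, adjusted p = 0.0146, lost without DF replicate 2, 0.146, or DP replicate 2, 0.174). It was listed at 0 in all libraries of Epi, ORS, Mx, TAC and Mc, so no fold is given. It was called higher in the mean of DF and DP than in the epithelial sorts (limma, adjusted p = 0.000334). It was also called lower in Mc than in DF (adjusted p = 0.000751), and both calls were lost with a pseudocount of 5.

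Ccl3, a ligand of Ccr1 made by myeloid cells, was at 6.97 and 6.03 in Neg and listed at 0 in all other libraries of the K14-H2BGFP line. Outside that line it was above 0 in HF-ORS replicate 2 only, at 3.01. It passed the filter on low values only through Neg, so its calls there repeat this pattern and add no support to it. Ccl4, its neighbour on chromosome 11, was at 0 and 0.688 in Neg. Ccl17 reached 18.9 in G-DP replicate 2, with the other G-DP library at 0, and no more than 3.73 in any other, so that 1 library made its mean.

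Ccl20, a ligand of Ccr6, was an epidermal ligand in the K14-H2BGFP line. It was at 2.73 and 6.19 in Epi and at 0.259 or less in every other library of that line. HF-ORS was at 35.1 and 45.3 and HF-SC at 24.3 and 11.7. Epi, HF-SC and HF-ORS did not overlap, and each lay above all other populations. ORS was below Epi by a log2 change of -2.29 ± 0.33 (limma, adjusted p = 4.66e-05), a change that shrank below 1, to -0.88, with a pseudocount of 5. HF-SC was below HF-ORS by -1.18 ± 0.33 (adjusted p = 0.041). That call was lost without HF-SC replicate 2 (0.392), HF-ORS replicate 1 (0.0815) or HF-ORS replicate 2 (0.173), and with the spread taken from the 4 libraries of the line alone (0.469). Of the suprabasal markers, Krt1 and Krt10 were ordered like Ccl20 within each line, though not between lines. Krt1 was at 3434 and 2643 in Epi and 238 and 203 in HF-SC, beside the HF-ORS and ORS values given above. Ivl and Lor, the other suprabasal markers, were not called in ORS against Epi (log2 change -0.03 and -0.34). They were not called in HF-SC against HF-ORS either, where Ivl went the other way (0.74 and -0.99). The part of these markers in the Ccl20 levels was not tested.

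Of the ligands that are made membrane-bound and then shed, Cxcl16 had its highest means in HF-SC, HF-ORS, Epi and ORS, and Cx3cl1 was shared. Cxcl16, the ligand of Cxcr6, was at 61.6 and 59.8 in HF-SC and 56.7 and 60.5 in HF-ORS, against 14.4 and 8.77 in Epi and 6.38 and 4.23 in ORS. HF-SC and HF-ORS overlapped each other and stood above Epi, and Epi above ORS. DF and DP lay at 2.22 or less. Their mean was below the 4 epithelial sorts by a log2 change of -1.64 ± 0.25 (limma, adjusted p = 1.81e-05), a call lost with a pseudocount of 5. Mx and TAC were low as well, at means of 1.67 and 2.43, beside 1.41 in DF, which Mx overlapped, and 3.27 in Neg. Cxcl16 shares 552 exon bases with Zmynd15 on the opposite strand, which also had its highest means in these sorts, at 3.01 and 3.73 in HF-SC and 5.40 and 2.14 in HF-ORS, against 0 to 3.28 elsewhere. Its part in the Cxcl16 values was not tested. Cx3cl1, the ligand of Cx3cr1, was at 14.1 and 5.52 in ZZ-DP, 12.5 and 3.79 in HF-ORS, 7.04 and 6.02 in DP and 6.12 and 3.29 in Epi, with overlap among these 4. It varied over the 8 K14-H2BGFP populations (limma F-test, adjusted p = 0.00333), with Mc lowest, at 0.170 and 0.

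Among signalling receptors, Cxcr4 alone reached a population mean of 5 FPKM. It was at 42.2 and 55.1 in DP and 37.8 and 39.0 in DF, between 7.99 and 46.9 in the 4 other papilla sorts, and at 30.0 and 42.8 in HF-SC. ORS was at 15.1 and 8.83, Neg at 7.42 and 6.90, and Epi at 1.53 and 2.26. Both DP libraries lay above both DF libraries, though DP and DF were not called different, and ORS lay above Neg. The mean of DF and DP exceeded that of the 4 epithelial sorts by a log2 change of 3.20 ± 0.43 (limma, adjusted p = 4.94e-06), and Mc was below DF (-3.35 ± 0.71, adjusted p = 0.00153). HF-SC exceeded HF-ORS, which was at 0.459 and 7.22, by 3.41 ± 0.71 (adjusted p = 0.0064). That call was lost without HF-ORS replicate 1 (0.164) or HF-SC replicate 2 (0.066), and with the spread taken from the 4 libraries of the line alone (0.418). Cxcr4 lies on chromosome 1, 128588199 to 128592299.

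Ligand and receptor could thus be set side by side. ORS and HF-SC held both Cxcl12 and Cxcr4 above 8 FPKM in every library, as did DF. DP held Cxcr4 with Cxcl12 at 3.27 or less, and Neg had Cxcl12 at 15.5 and 30.5 with Cxcr4 at 7.42 and 6.90. Epi had both at 2.26 or less. Elmo1, which links chemokine receptors to Rac, was at 18.2 and 15.7 in ORS and 13.4 and 15.6 in HF-SC. It was at 0.726 and 0.197 in Epi and 1.21 and 1.64 in HF-ORS. Of 12 signalling genes of the pathway tested, Elmo1 and Rgs2 were higher and Gnai1 lower in ORS than in Epi. The shares of all genes were 5.35% and 4.48%. In HF-SC against HF-ORS Elmo1 alone was called, higher, against 2.66% of all genes higher and 1.73% lower.

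**Figure D4:**
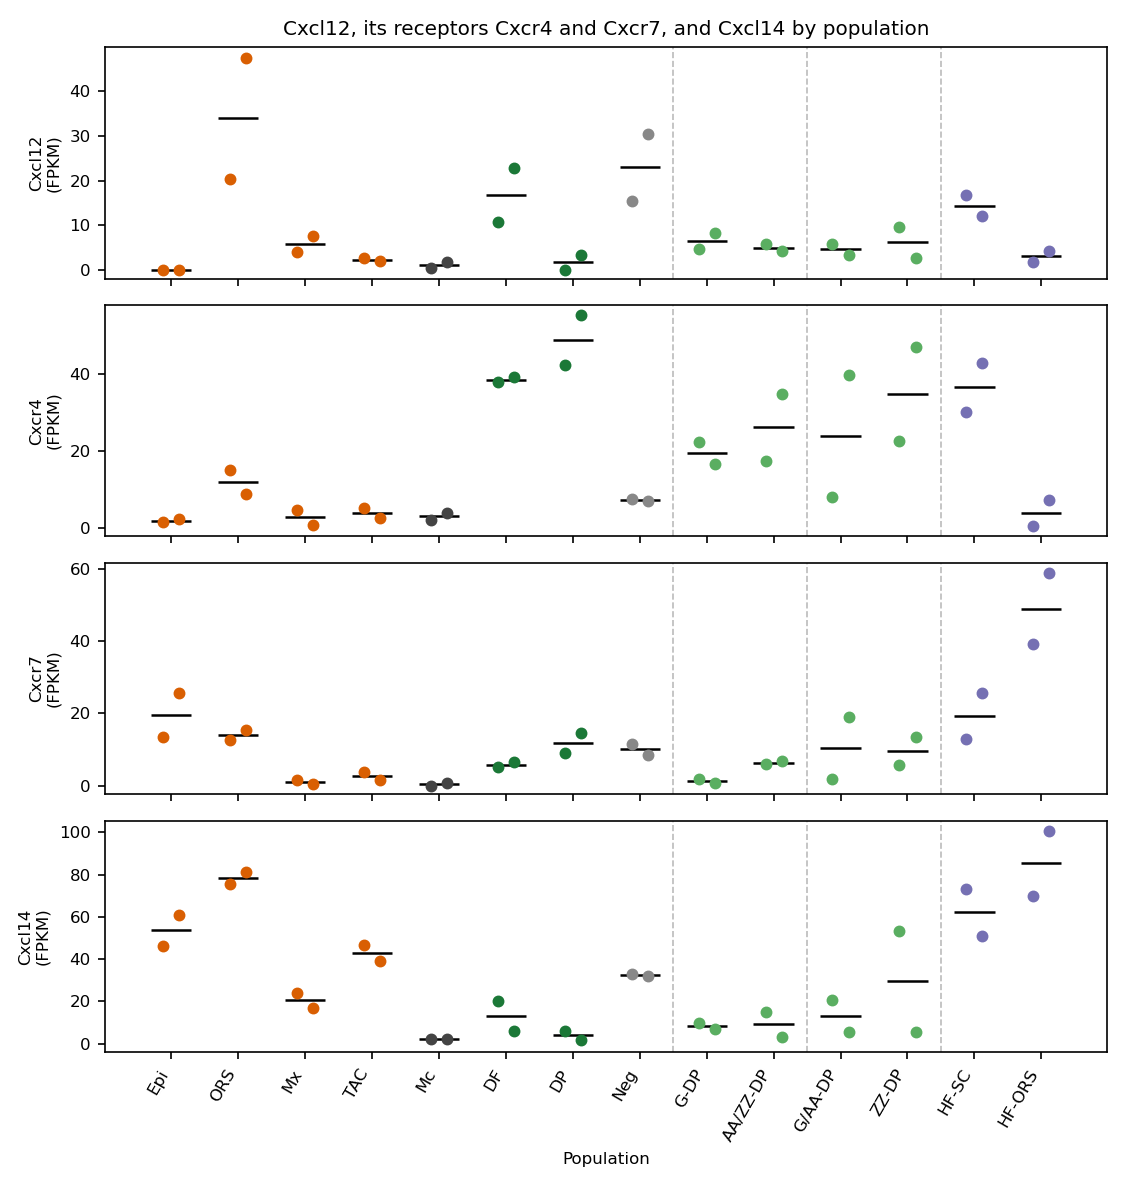
FPKM (y axes, linear) of Cxcl12, Cxcr4, Cxcr7 and Cxcl14 in the 14 populations (x axis), where points are the 2 libraries, bars their mean and dashed lines separate mouse lines. Cxcl12 is near 0 in both Epi libraries and has its highest mean in ORS, Cxcr4 has its highest mean in DP, and Cxcr7 is highest in HF-ORS, at 39.1 and 58.7.

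The other signalling receptors stayed low. Cxcr2, a receptor of Cxcl1 and Cxcl2, was even, from 1.78 to 5.45 over all 28 libraries, and did not pass the F-test over the K14-H2BGFP line (adjusted p = 0.629). Cxcr6 was at 4.50 and 1.61 in DP against 0 and 0.801 in DF (log2 change 1.497 ± 0.44, limma, adjusted p = 0.0412), a call lost without DF replicate 1 (0.368) or DP replicate 1 (0.43). Ccr10, the receptor of Ccl27a, was at 2.34 and 0.798 in Epi, where its ligand peaked. It was called higher in Epi than in 2 of the other 7 sorts, Mc and DP, in the pairwise tests behind the signatures, and in none of the 10 comparisons. Neither Ccr10 nor Cxcr6 passed the limma F-test over the K14-H2BGFP line (adjusted p = 0.126 and 0.145). Ccr6, the receptor of Ccl20, was at 0 and 1.22 in Neg, and Ccr2, the receptor of Ccl2, at 0.175 and 1.45 there, with Ccr2 listed at 0 in all other libraries. Cxcr3 was listed at 0 in all 28 libraries.

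Both atypical receptors were high in Epi, HF-SC and HF-ORS and low in Mx. Cxcr7, which takes up Cxcl12, was at 39.1 and 58.7 in HF-ORS, 13.5 and 25.6 in Epi, 12.9 and 25.6 in HF-SC, 12.7 and 15.5 in ORS and 9.002 and 14.7 in DP. HF-ORS lay above Epi without overlap. Mx, at 1.61 and 0.603, was below ORS by a log2 change of -2.87 ± 0.64 (limma, adjusted p = 0.0103), a call lost without ORS replicate 1 (0.0597), ORS replicate 2 (0.117) or Mx replicate 2 (0.168). Mc, at 0 and 0.710, was below DF, at 5.05 and 6.64 (-2.38 ± 0.64, adjusted p = 0.0105, lost without Mc replicate 1, 0.111, or DF replicate 2, 0.0731).

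Ccrl1, which takes up Ccl19 and Ccl25, was at 37.1 and 49.6 in Epi, 33.3 and 52.6 in HF-ORS and 26.3 and 29.7 in HF-SC, and between 17.5 and 28.0 in 7 of the 8 papilla subtype libraries. The remaining one, the first library labelled G/AA-DP, stood at 166. ORS, at 5.92 and 4.46, was below Epi by a log2 change of -2.84 ± 0.66 (limma, adjusted p = 0.00621), a call lost without Epi replicate 2 (0.0663) or ORS replicate 2 (0.067). Mc, at 0.611 and 0.683, was below DF, at 6.82 and 19.3 (-2.93 ± 0.66, adjusted p = 0.00281, lost without DF replicate 2, 0.0629). Ccrl1 shares 352 exon bases with Acad11 on the opposite strand, which was also high in Epi (12.4 and 10.97), HF-SC (11.8 and 13.4) and HF-ORS (11.2 and 14.7) over a whole range of 4.36 to 14.7. Its part in the Ccrl1 values was not tested. Ccrl2, a receptor that binds chemerin, was at 0.961 and 3.99 in Neg.

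Counts of called members were then read against all genes tested. In Neg against the mean of the other 7 sorts, 7 of 32 members were higher (Ccl11, Ccl2, Ccl3, Ccrl2, Cxcl1, Cxcl12 and Cxcl2) and none was lower, against 3.53% of all genes higher and 0.452% lower. Ccl3 passed the filter only through Neg, so its place in this count was largely set in advance. Log2 changes were 2.94 ± 0.54 for Ccl11, 2.84 ± 0.65 for Ccl2 and 2.25 ± 0.47 for Cxcl12 (limma, adjusted p = 0.00132, 0.010 and 0.00527). The others were Cxcl1 (1.98 ± 0.45), Cxcl2 (1.87 ± 0.36) and Ccrl2 (1.45 ± 0.35), with adjusted p of 0.0109, 0.00222 and 0.0151. The median log2 change was 0.11 over members and -0.04 over all genes. Without Neg replicate 2 only Ccl3 was called, with adjusted p for the other 6 of 0.0697 to 0.57, and without Neg replicate 1 Ccl2 (0.0532) and Cxcl1 (0.122) were lost.

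Markers of several cell types moved with these genes in Neg. All 8 endothelial markers were higher, with a summed FPKM of 173 and 264 in Neg against 0 to 13.4 in the other libraries of the line, and all 6 pericyte and smooth muscle markers, at 467 and 492. Higher, too, were 3 of 6 fibroblast, 3 of 4 melanocyte, 2 of 5 Schwann and 2 of 5 keratinocyte markers. The last were Krt15 and Krt5, and the keratinocyte list summed to 1706 and 1109. Of 5 leukocyte markers tested 4 were higher, at a summed 19.5 and 19.8 against 5.15 or less, as were all 4 mast cell and 3 of 8 macrophage markers. Ptprc, the pan-leukocyte gene, was at 1.39 and 2.49, and of 4 Langerhans and dendritic markers tested Cd74 and H2-Aa were higher, with a summed list level of 21.9 and 16.5, while Cd207 was at 0.197 and 0. The part of these cells in the chemokine calls was not tested. DF, where Cxcl12 and Ccl11 were also high, had pericyte markers at a summed 614 and 604.

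In DF and DP against the 4 epithelial sorts, 5 members were higher (Ccl11, Ccl2, Ccl7, Cxcl1 and Cxcr4) and 4 lower (Ccl27a, Cxcl10, Cxcl14 and Cxcl16), against 14.5% and 11.5% of all genes (26% in either direction), close to the background. For Ccl27a the log2 change was -1.497 ± 0.34 (limma, adjusted p = 0.00138). ORS against Epi had 1 higher (Cxcl12) and 3 lower (Ccl20, Ccl27a and Ccrl1), against 5.35% and 4.48% (9.83% in either direction). In DP against DF, 4 of 6 pericyte and smooth muscle, 4 of 4 melanocyte, 4 of 5 Schwann and 3 of 5 keratinocyte markers were lower. The Schwann marker S100b was higher, no fibroblast marker was called, and the part of these cells was not tested. Of members, DP against DF had 1 higher (Cxcr6) and 3 lower (Ccl7, Cxcl10 and Cxcl12), against 2.44% and 4.25% (6.69%). Without DF replicate 1, DF replicate 2 or DP replicate 1 the total of 4 fell to 2, 1 and 1.

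Mc against DF had 1 higher (Ccl25) and 8 lower (Ccl11, Ccl7, Ccrl1, Cxcl1, Cxcl10, Cxcl12, Cxcr4 and Cxcr7), against 6.67% and 11.5% (18.2%), and the median log2 change was -0.38 over members and 0.02 over all genes. A change above 0 was seen in 3 of the 32 members, but the rest were not all lower. Ccl3 and Ccl20, for example, were listed at 0 in both sorts, and the share of all genes above 0 was not counted. Changes for Ccl11 and Cxcl12 were -3.31 ± 0.71 and -3.02 ± 0.63 (limma, adjusted p = 0.00176 and 0.00133). Cxcl10 passed narrowly (-1.86 ± 0.59, adjusted p = 0.0313) and was lost without DF replicate 1 (0.148), DF replicate 2 (0.0764) or Mc replicate 2 (0.297). All 6 pericyte and all 6 fibroblast markers were lower in Mc as well.

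Mx against ORS had 2 lower (Cxcl12 and Cxcr7) and none higher, against 2.64% and 1.2% (3.83%). Cxcl12 was lost with any of the 4 libraries left out, and Cxcr7 without ORS replicate 1, ORS replicate 2 or Mx replicate 2. TAC against Mx had none called in limma, against 1.04% of all genes higher, 0.233% lower and 1.27% in either direction. At an unadjusted p under 0.05, for which the share of all genes was not counted, there were 2 members (Ccl19 and Cxcl17, both lower). HF-SC against HF-ORS had 1 higher (Cxcr4) and 1 lower (Ccl20), against 2.66% and 1.73% (4.4%), with 1 call without HF-ORS replicate 1 and 0 without HF-SC replicate 2. G-DP against AA/ZZ-DP had none called in limma, against 0.412% of all genes higher, 0.093% lower and 0.505% in either direction. At an unadjusted p under 0.05 there were 5 members, and the share of all genes at that looser threshold was not counted. The nearest was Cxcl10, at 1.6004 and 9.59 in G-DP and listed at 0 in both AA/ZZ-DP libraries (adjusted p = 0.0957), and without G-DP replicate 1 there were 3 calls (Ccl17, Cxcl10 and Cxcl3). The libraries labelled G/AA-DP and ZZ-DP had no member called in limma and none at an unadjusted p under 0.05, against 0.00664% of all genes, and leaving out both first replicates also gave 0.

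**Figure D5:**
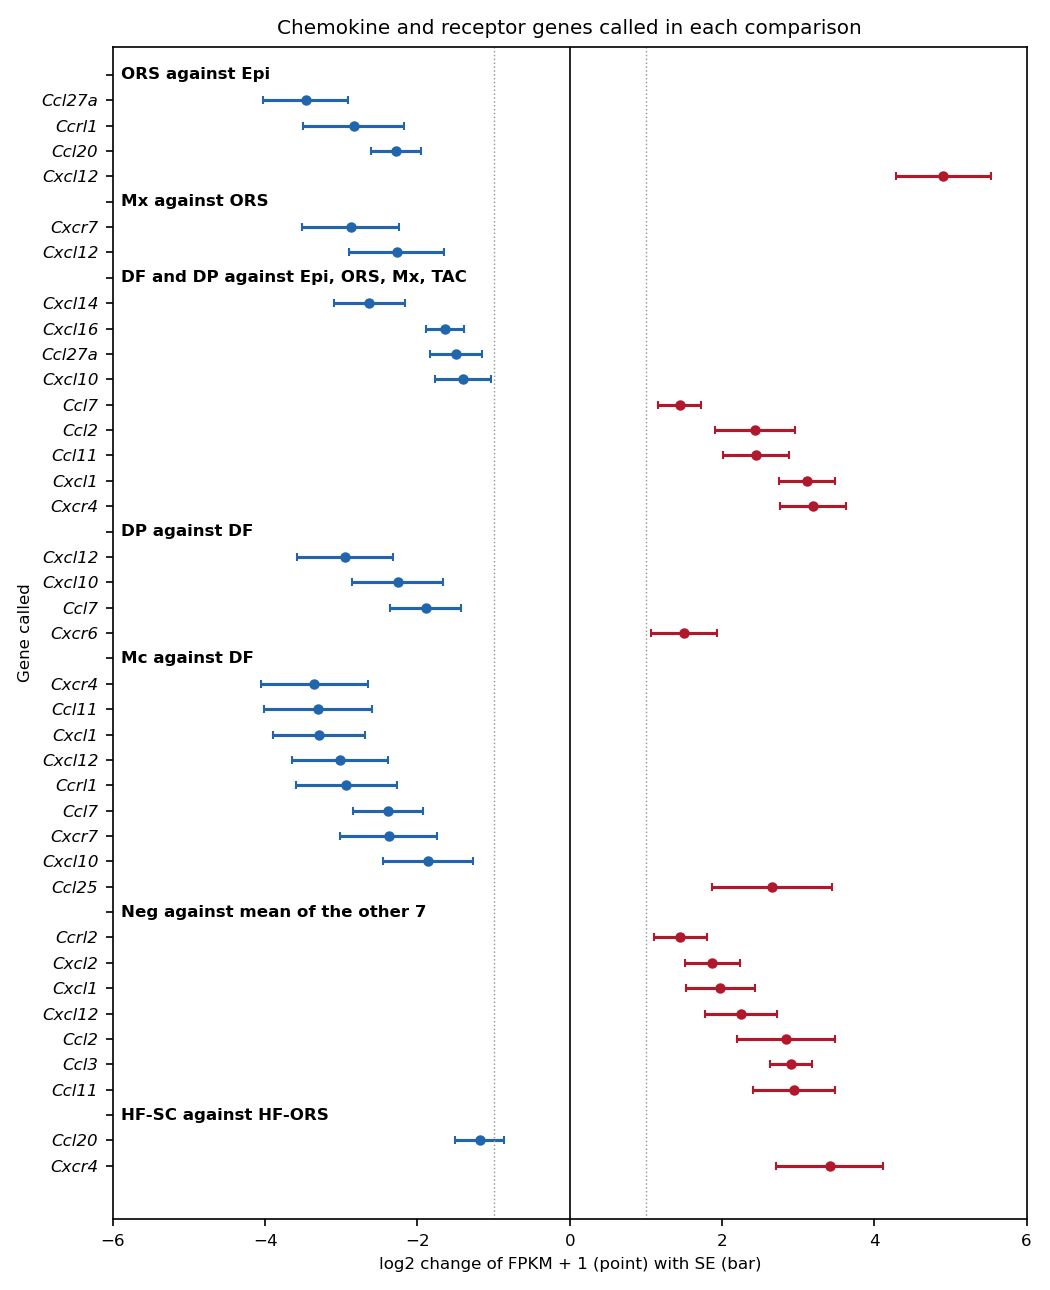
Log2 change of FPKM + 1 (x axis, points) with its SE (bars) for each member called in 7 comparisons (groups of rows), higher in red and lower in blue, with dotted lines at a change of 1 in either direction. Of the changes plotted, Cxcl12 in ORS against Epi is the largest, 4.91, and all 7 members called in Neg are higher. The point of Ccl3 in Neg rests on libraries listed at 0. So do those of Ccl7 in Mc against DF and in DF and DP against the epithelial sorts.

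Over the 8 K14-H2BGFP populations together, 18 of 32 members varied in a limma F-test, against 48.9% of all genes tested. Besides those described these included Cxcl17 (adjusted p = 0.00994), which was at 2.11 and 1.79 in Mx and 1.35 or less elsewhere. Signatures, genes called higher in 1 population than in each of the other 7, held 3 members against 8.26% of all genes: Ccl20 and Ccl27a in Epi (1.91%) and Ccl3 in Neg (0.691%). That of Ccl3 was largely set in advance, since Ccl3 passed the filter only through Neg. None was a signature of ORS (0.206%), Mx (0.00664%), TAC (0.193%), Mc (3.12%), DF (0.312%) or DP (1.81%).

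The 2 sorts of the K14-RFP Sox9-GFP line carried more inflammatory ligand RNA than ORS, though mouse line and sort cannot be told apart and no test was made. All 4 of their libraries were above both ORS libraries for 10 of 32 members (Ccl2, Ccl20, Ccl27a, Ccl7, Ccrl1, Cxcl1, Cxcl10, Cxcl16, Cxcl2 and Cxcl9), against 14.2% of all genes, and below for 5 (Ccl19, Ccl25, Cxcl12, Cxcr6 and Xcr1), against 17.3%. Of 12 inducers and mediators tested, 9 were likewise above both ORS libraries in all 4 and none below, beside the same 14.2% and 17.3% of all genes. Among them Rela, an NF-kB subunit, was at 63.1 and 45.3 in HF-SC and 60.9 and 39.4 in HF-ORS, against 14.0 and 8.56 in ORS. Tnf was at 8.55 and 21.3 and at 15.2 and 11.2, against 1.81 and 1.82. Hspa1a, a heat shock gene, was at 928 and 799 and at 778 and 469, against 89.5 and 47.8, and the stress gene Atf3 at 380 and 285 and at 423 and 331, against 101.3 and 57.1. Leukocyte markers summed to 5.67 and 6.12 in HF-SC and 14.1 and 17.6 in HF-ORS, against 0.597 and 0.580 in ORS. Ptprc was at 0.0587 or less in all 4. Macrophage markers summed to 17.5 and 16.1 and to 41.6 and 23.6, against 3.52 and 3.17. Langerhans and dendritic markers summed to 23.8 and 19.3 and to 8.23 and 28.3, against 2.23 and 3.96. Mast cell markers, listed at 0 in ORS, were above 0 in all 4, up to 22.2 in HF-ORS replicate 2. T cell and neutrophil sums were not above both ORS libraries in all 4. The part of these genes and cell types in the ligand levels was not tested.

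Other genes of the pathway came from 3 lists. Of 12 inducers and mediators tested (cytokines, NF-kB and interferon factors), 4 were higher in Neg and none lower, against 3.53% and 0.452% of all genes: Il1b (7.57 and 7.26), Il6 (6.11 and 24.1), Il1r1 and Tnfaip3. In ORS against Epi, Irf1, Nfkbia and Tnfaip3 were higher and none lower, against 5.35% and 4.48%, with Tnfaip3, an NF-kB target and inhibitor, at 28.5 and 23.2 against 2.97 and 4.39. Beside them 6 of 9 immediate early and stress genes were higher in ORS, whose part was not tested. In Mc against DF, 5 were lower (Il1r1, Irf1, Nfkbia, Tnf and Tnfaip3) and none higher, against 11.5% and 6.67%.

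Of 12 signalling genes tested, 4 were higher (Adrbk2, Arrb1, Gnai2 and Rgs16) and 1 lower (Arrb2) in DF and DP than in the epithelial sorts, against 14.5% and 11.5% of all genes. In Mc against DF, 5 were lower (Adrbk2, Arrb1, Dpp4, Gnai1 and Rgs2) and none higher, against 11.5% and 6.67%. Adrbk2, a kinase that turns off receptors such as Cxcr4, was at 30.8 and 38.3 in DP and 6.17 and 16.8 in DF, against 0.99 or less in Epi, ORS, Mx and TAC. In Neg, Elmo1, Rgs1 and Rgs16 were higher and none lower, against 3.53% and 0.452%. Of 6 ligands and receptors under other symbols, Cmklr1, Darc and Rarres2 were higher and Mif lower in DF and DP, against the same 14.5% and 11.5%. Rarres2, which encodes chemerin, was at 14.0 and 41.6 in DF and 18.6 and 11.2 in DP, and its receptor Cmklr1 at 9.22 and 17.8 and at 5.14 and 10.5. Mif, a cytokine that also binds Cxcr4, was at 302 and 274 in Epi.

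The 38 members that did not reach a mean of 5 FPKM in any population included the T cell and myeloid receptors. Of 21 receptors 3 reached it, and Ccr1, Ccr3, Ccr7, Ccr8, Cx3cr1 and Cxcr1 stayed under 1 FPKM in every library. Listed at 0 throughout were Ccl8, Ccl12, Ccl24, Ccl26, Xcl1, Cxcr3 and the second Ccl19 row. Of those tested, Xcr1 lay between 0.575 and 2.75 in 12 populations and between 0.0866 and 0.508 in HF-SC and HF-ORS.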

How the data were processed

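Gene expression was measured by RNA-seq of amplified cDNA in 28 libraries. The authors deposited 1 table of FPKM, with the libraries as columns, all of which were assigned by name. Per the submitters' processing notes, Cufflinks 2.1.1, TopHat2 2.0.3 and Bowtie2 were used with build mm10; annotation, filters and strand use: not given in the sources used here. Of 23235 rows, 220 identical to another were dropped. Depth could not be recovered from the steps of low values: modal ratios closed within 0.1 (log2) in 29.3% of library triples.

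Values were tested as log2(FPKM + 1), a pseudocount of 1, with limma 3.58.1 in R 4.3.3, in 1 fit over all libraries with a mean per population, trended empirical Bayes (14 residual and 5.72 prior degrees of freedom) and adjustment over all 15052 genes within each of 10 comparisons. The script was tested on simulated data. Members with a population mean of at least 5 FPKM, and members called in a comparison, were named, with a few others chosen after their values were seen. Members and lists were chosen with earlier results of these data known. Positions and promoters came from RefSeq GRCm38.p6, where 54 of 56 members matched, 2 by synonym and neither Ccl19 row. Exon overlaps came from GENCODE. Alternatives were other pseudocounts, filters, quantile normalization, a replicate block, the mouse line alone and each library left out.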

Additional observations from a re-analysis of the deposited data

How the results depend on the processing

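No call of a member changed direction. Of 37 calls, 13 held in each alternative run and 24 were lost in at least 1: 19 with a library left out and 14 with a pseudocount of 5. The calls that held were Ccl27a and Cxcl12 in ORS against Epi, Ccl3 in Neg, Ccl11, Cxcl1, Cxcl12 and Cxcr4 in Mc against DF and Cxcr4, Cxcl1, Cxcl14, Ccl2, Ccl11 and Ccl27a in DF and DP against the epithelial sorts. The call of Ccl3 rests on libraries listed at 0, so that it held adds no support. The unknown depth limits the low members, such as Ccr10 and Cxcl9. With a pseudocount of 5 the members called fell to 4 in Neg, 2 in DP against DF and 5 in Mc against DF. With a pseudocount of 0.1 there was 1 in Mx against ORS, 1 in HF-SC against HF-ORS and 1 in G-DP against AA/ZZ-DP. Quantile normalization gave 1 in each of Mx against ORS, TAC against Mx (Cxcl17, lower) and HF-SC against HF-ORS, no filter gave 1 in Mx against ORS, and a filter at 5 FPKM gave 1 in HF-SC against HF-ORS. With the libraries of the mouse line alone there were 0 in HF-SC against HF-ORS, where 0 of all genes tested were called, and 5 in signatures (adding Ccrl1 in Epi and Cxcl2 in Neg). The causes of these shifts were not tested.

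With 1 library left out, counts ran from 1 to 7 in Neg, 1 to 3 in DP against DF, 7 to 9 in Mc against DF, 3 to 4 in ORS against Epi, 0 to 1 in Mx against ORS, 0 to 3 in HF-SC against HF-ORS and 0 to 3 in G-DP against AA/ZZ-DP. They were 9 throughout in DF and DP against epithelium, 17 to 19 in the F-test and 3 to 4 in signatures. A lone remaining library was assumed to vary like the other groups.

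Same-numbered samples shared deviations only in part, with correlations of 0.057 to 0.275 in the K14-H2BGFP line (27 of 28 pairs above 0.1), 0.285 for Sox2-GFP, 0.283 for Crabp1-GFP and 0.071 for Sox9-GFP skin, so the numbers were not read as pairs. With the replicate number as a block none of the 37 calls was lost. The block gave 4 members in Mx against ORS (Cxcl12, Cxcl14, Cxcr4 and Cxcr7) and 4 in HF-SC against HF-ORS (Ccl20, Cxcl12, Cxcl3 and Cxcr4).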

Other observations

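Pf4, a platelet chemokine outside the naming rule, was at 0 and 19.5 in HF-SC and 26.1 and 11.4 in HF-ORS, and at 1.37 or less in the other 12 populations.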
